A study of Danio rerio with 4 samples.

Results

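Genes of the p53 pathway and of cell cycle arrest were followed in 4 RNA-seq libraries of adult zebrafish heart. The set holds 9 genes chosen by name, mdm2, cdkn1a, ccng1, gadd45aa, gadd45ba, gadd45bb, cdkn1ca, bbc3 and baxa, which matched 10 of the 32520 gene IDs in the count tables. The gene name table lists gadd45aa without its copy letter, as GADD45A, for 2 IDs (ENSDARG00000104571 and ENSDARG00000043581), one of which may be the paralogue gadd45ab. It lists gadd45ba and gadd45bb as GADD45B, also for 2 IDs (ENSDARG00000013576 and ENSDARG00000027744), and does not say which is which. These 4 IDs are named here by symbol and ID number, for example GADD45B 27744. The remaining 6 genes each matched 1 ID, ccng1 as CCNG1 and baxa as BAX, and all 10 IDs passed the filter on low values (1 scaled CPM in at least 1 library, where CPM are counts scaled to library size).

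The fish were adults of the Ekkwill strain, and their exact age is not given in the labels. Wild-type hearts (LEN+/+) and hearts homozygous for a deletion of LEN, the regeneration enhancer linked to the leptin gene lepb, were taken either uninjured or 3 days post-amputation (3 dpa). A single library stood for each of the 4 groups, made from whole-heart RNA extracted with Trizol, and the number of hearts in a library is not given in the labels. The gene lepb had 78 counts in wild type at 3 dpa and 2 in each of the other 3 libraries. Where 4 values follow each other below, they are those of uninjured wild type, uninjured mutant, injured wild type and injured mutant, in that order.

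The transcription factor p53 is held low by the ubiquitin ligase Mdm2 and accumulates after DNA damage and other stress. It then switches on its own inhibitor mdm2, the cyclin-dependent kinase (CDK) inhibitor gene cdkn1a, cyclin G1 (ccng1), Gadd45a and the death genes bbc3 and bax. Gadd45 genes also answer to stress signals that do not pass through p53. Adult zebrafish hearts regrow amputated muscle by division of cardiomyocytes, so genes that stop the cell cycle are of interest at a stage when many heart cells begin to divide.

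Total counts ranged from 31618442 to 35026983 per library, and levels are given as CPM after TMM scaling. All values of 1 library against another have no replicate. Their 95% intervals cover counting error only, so they compare libraries and not conditions, and a gene passed the threshold when its log2 ratio was at least 1 in size with an interval that excluded 0. Cardiomyocyte marker genes summed to 80257, 87337, 39826 and 39950 scaled CPM. With injury, epicardial and fibroblast markers were higher by 6.49-fold (wild type) and 6.04-fold (mutant), and leukocyte markers by 3.77-fold and 3.83-fold. In whole hearts, fewer cells of a type and less RNA per cell cannot be told apart. The wild-type uninjured library stood apart in liver transcripts. The 12 liver genes summed to 1464 scaled CPM there, against 42.2 in the mutant uninjured library and 389 and 421 at 3 dpa, and 11 of the 12 were highest in it. Gene by gene the gap was wider than in the sums. For injury in wild type the median log2 ratio of the 12 was -8.71, with 11 passing as lower and a highest value of 0.11. For mutant over wild type in uninjured hearts the median was -8.64.

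The first question was whether the set responded to amputation. Most changes were small. Over both genotypes, 5 of the 10 IDs rose and 2 fell, and in wild type alone none passed the threshold. The rises were those of mdm2, baxa, both GADD45A IDs and GADD45B 13576, and the falls were those of ccng1 and cdkn1ca. The rise of GADD45B 13576 came mostly from the mutant pair, with log2 ratios of 2.07 there and 0.26 in wild type. The changes over both genotypes came from an additive edgeR quasi-likelihood fit with genotype as a covariate. Its error for a gene starts from the difference between the injury responses of the genotypes and is drawn towards the spread of all genes. A gene whose responses differ widely can therefore still be called. In that fit 45.8% of 16509 tested genes had an adjusted p below 0.05 (25.4% higher and 20.3% lower). The DESeq2 fit called 3 of the 10 IDs (ccng1, GADD45A 43581 and GADD45B 13576), where it called 30.5% of all genes, so the set's share of calls was at the background by that tool.

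**Figure D1:**
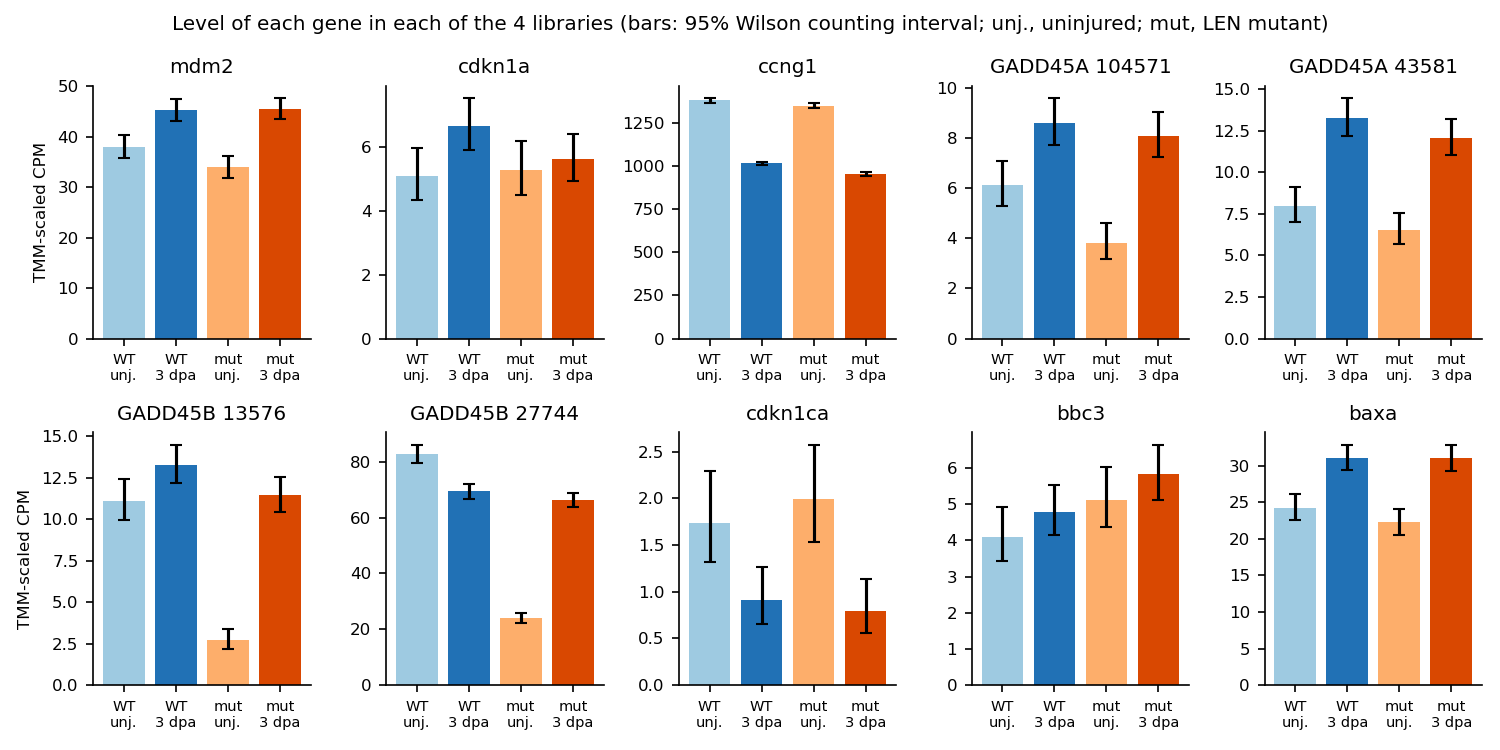
Level of each of the 10 gene IDs in TMM-scaled CPM (vertical axes start at 0 and differ between panels) in the wild-type and LEN mutant (mut) libraries, uninjured (unj.) and at 3 dpa. Bars are single libraries with 95% Wilson counting intervals. GADD45B 27744 stood at 23.9 scaled CPM in the mutant uninjured library and between 66.2 and 82.8 in the others.

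Among the direct regulators and targets of p53, mdm2 encodes the ligase that marks p53 for degradation. Its 4 libraries held 1092, 973, 1734 and 1767 counts, or 38.0, 34.0, 45.2 and 45.5 scaled CPM. Both 3 dpa libraries were thus above both uninjured libraries. The share of all genes whose libraries separate by injury in this way was not computed, so this order is not read as particular to the set. The same holds for the genes below. The injury log2 ratio was 0.25 (95% counting interval, 0.14 to 0.36) in wild type, and the mutant pair gave 0.42 (0.31 to 0.54). Over both genotypes mdm2 rose by 0.34 ± 0.11 (SE) on the log2 scale (2 against 2 libraries, edgeR adjusted p = 0.0347). DESeq2, upper-quartile factors and an edgeR fit with no genotype term (adjusted p = 0.0767) each ended this call, and total counts moved the value to 0.63.

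The gene cdkn1a encodes p21, the CDK inhibitor through which p53 halts cells in G1. Its counts were 146, 151, 255 and 218, which are 5.08, 5.27, 6.65 and 5.61 scaled CPM. This is a narrow range in which injured wild type was the highest. The injury log2 ratio was 0.39 (0.09 to 0.69) in wild type, and the mutant pair gave 0.09 (-0.22 to 0.40). The difference between them lay within counting error (-0.30, -0.71 to 0.12). Over both genotypes the value was 0.24 ± 0.18 (edgeR adjusted p = 0.313), and with total counts it was 0.53 and called (adjusted p = 0.0470).

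Cyclin G1 is an atypical cyclin that p53 induces and that recruits a phosphatase to Mdm2 in mammals. Its ID, CCNG1, had 39749, 38751, 38971 and 37080 counts, or 1382, 1352, 1016 and 955 scaled CPM. Both injured libraries were below both uninjured libraries. The gene fell by 0.47 on the log2 scale over both genotypes (SE 0.10, edgeR adjusted p = 0.00576), with -0.44 (-0.46 to -0.42) for wild type and -0.50 (-0.52 to -0.48) for the mutant. Cardiomyocyte markers were also lower at 3 dpa, with summed levels 0.496 and 0.457 times those of the uninjured libraries. Their part in the lower ccng1 level was not tested. With total counts in place of TMM the log2 values were -0.18 and -0.19, and the fit over both genotypes made no call.

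The death effectors of the pathway gave small values. Bax forms pores in the outer mitochondrial membrane. The ID of baxa had 699, 638, 1193 and 1206 counts, or 24.3, 22.3, 31.1 and 31 scaled CPM. Both injured libraries were above both uninjured ones. The gene rose by 0.42 ± 0.11 on the log2 scale (edgeR adjusted p = 0.0178), a call that DESeq2 and upper-quartile factors did not make, while total counts moved the value to 0.71. The gene bbc3 encodes Puma, a BH3-only protein that frees Bax from its inhibitors. It had 118, 147, 184 and 227 counts, or 4.1, 5.13, 4.80 and 5.84 scaled CPM, with the mutant the higher of each pair. The injury log2 ratios were 0.22 (-0.12 to 0.57) and 0.19 (-0.12 to 0.50), and the genotype log2 ratios 0.32 (-0.04 to 0.68) uninjured and 0.28 (-0.003 to 0.57) at 3 dpa. All 4 intervals included 0. Over both genotypes the injury value was 0.21 ± 0.18 (edgeR adjusted p = 0.390), and 0.50 with total counts (adjusted p = 0.0595).

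The CDK inhibitor gene cdkn1ca encodes p57, which holds differentiated cells out of the cycle. It was counted rarely, with 50, 57, 35 and 31 counts, or 1.74, 1.99, 0.913 and 0.798 scaled CPM, so the injured and uninjured libraries did not overlap. The injury log2 ratio was -0.89 (-1.60 to -0.28) in wild type and, past the threshold, -1.26 (-2.00 to -0.66) in the mutant. Over both genotypes it fell by 1.12 on the log2 scale (SE 0.36, edgeR adjusted p = 0.0384). DESeq2, total counts and an edgeR fit with no genotype term (adjusted p = 0.0595) each ended this call.

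The Gadd45 proteins are small stress-induced regulators that bind Cdk1, PCNA and a kinase upstream of p38. GADD45A 104571 had 176, 110, 331 and 315 counts, or 6.12, 3.84, 8.63 and 8.11 scaled CPM. GADD45A 43581 had 230, 188, 509 and 470 counts, or 8.0, 6.56, 13.3 and 12.1 scaled CPM. For both IDs, each 3 dpa library was above each uninjured library, and the mutant uninjured library was the lowest. Over both genotypes GADD45A 104571 rose by 0.78 ± 0.19 on the log2 scale (edgeR adjusted p = 0.0143) and GADD45A 43581 by 0.81 ± 0.14 (edgeR adjusted p = 0.00321). DESeq2 also called the latter (log2 change 0.75, adjusted p = 0.0324) and did not call the former. With no genotype term GADD45A 104571 stood at 0.75 and was not called (edgeR adjusted p = 0.0934). In that fit its value was 0.45 without the mutant uninjured library and 1.12 without the wild-type uninjured library, each with 1 uninjured library left. Between single libraries GADD45A 104571 passed the threshold in the mutant (1.07, 0.76 to 1.41) and stood at 0.49 (0.23 to 0.77) in wild type. GADD45A 43581 passed in neither, at 0.73 (0.50 to 0.96) in wild type and 0.88 (0.64 to 1.13) in the mutant.

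**Figure D2:**
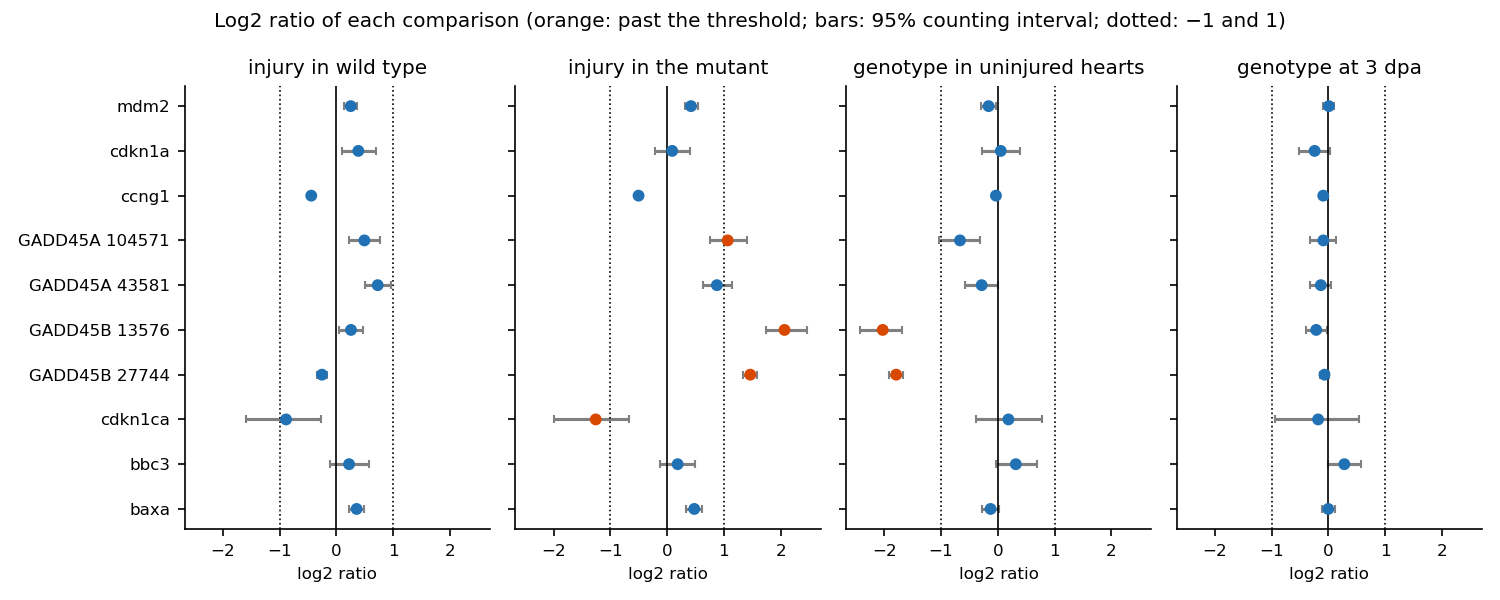
Log2 ratio of each gene ID in the 4 single-library comparisons (3 dpa over uninjured, or LEN mutant over wild type), with 95% counting intervals. Orange points passed the threshold, which was the case for none of 10 IDs for injury in wild type, 4 for injury in the mutant, 2 for genotype in uninjured hearts and none for genotype at 3 dpa. Of all tested genes, 20.0%, 20.3%, 8.01% and 3.00% passed in these comparisons, in the same order.

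The GADD45B IDs differed most between the libraries. GADD45B 13576 had 320, 77, 510 and 445 counts, or 11.1, 2.69, 13.3 and 11.5 scaled CPM. GADD45B 27744 had 2382, 686, 2662 and 2571 counts, or 82.8, 23.9, 69.4 and 66.2 scaled CPM. In both, the mutant uninjured library was low and the other 3 lay near each other. Injury log2 ratios were therefore large in the mutant, at 2.07 (1.74 to 2.46) and 1.46 (1.35 to 1.59), and small in wild type, at 0.26 (0.05 to 0.46) and -0.25 (-0.33 to -0.17), the last of which became 0.01 with total counts. The difference of the injury responses, mutant minus wild type, was 1.81 (1.41 to 2.21) for GADD45B 13576 and 1.72 (1.57 to 1.86) for GADD45B 27744. Both passed the threshold, as did 5.82% of all tested genes (4.34% higher and 1.48% lower), and no other member did.

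Over both genotypes GADD45B 13576 had an injury log2 change of 1.07 ± 0.37 (edgeR adjusted p = 0.0470), and upper-quartile factors ended this call. The call was also lost with no genotype term and all 4 libraries (0.84, edgeR adjusted p = 0.374). GADD45B 27744 had 0.58 ± 0.34 (edgeR adjusted p = 0.202) and, with no genotype term, 0.35. With 3 libraries the genotype term would leave no residual degree of freedom, so libraries were left out with no genotype term. Such a fit leaves 1 library, of 1 genotype, in an injury state, so its injury value is partly mixed with genotype. Without the mutant uninjured library the values of GADD45B 13576 and GADD45B 27744 were then 0.15 and -0.29, and without the wild-type uninjured library 2.20 and 1.5. These values lie near the single-library injury ratios of wild type and mutant and are not a separate check of them. GADD45B 13576 stood at 0.69 without the wild-type 3 dpa library and at 0.94 without the mutant 3 dpa library. Of all 10 IDs, 3 were called with no genotype term and all 4 libraries, where 29.4% of all genes were.

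In the mutant, 4 of the 10 IDs passed the injury threshold, 3 higher (GADD45A 104571 and both GADD45B IDs) and 1 lower (cdkn1ca). Across all tested genes 14.7% passed higher and 5.62% lower. In wild type 0 of 10 passed, against a background of 20.0% of all genes (13.2% higher and 6.76% lower), although the counting intervals of 9 IDs excluded 0. The median injury log2 ratio of the 10 IDs was 0.25 (wild type) and 0.45 (mutant), beside 0.03 and 0.04 over all tested genes. With total counts in place of TMM the medians over all genes moved to 0.30 and 0.36, and the share of higher genes among those that passed from 66.2% to 83.3% in wild type and from 72.3% to 91.0% in the mutant. Under upper-quartile factors that share in the mutant was 61.4%.

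The second question was whether loss of LEN changed the set. At 3 dpa it was nearly level between the genotypes, as were all tested genes, with median log2 ratios of -0.09 and -0.002. None of the 10 IDs passed the threshold there, against 3.00% of all tested genes (2.24% higher and 0.769% lower), and the log2 ratios ran from -0.24 for cdkn1a to 0.28 for bbc3. The counting intervals of ccng1 (-0.11 to -0.07) and GADD45B 13576 (-0.40 to -0.03) lay below 0, and the other 8 included 0. The log2 ratio of mdm2 was 0.01 (-0.09 to 0.10) and that of baxa -0.003 (-0.12 to 0.11).

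In uninjured hearts both GADD45B IDs passed as lower in the mutant, against 8.01% of all tested genes that passed, 3.92% as higher and 4.09% as lower. The log2 ratio, mutant over wild type, was -2.03 for GADD45B 13576 (-2.43 to -1.69) and -1.79 for GADD45B 27744 (-1.92 to -1.67), which is 4.07-fold and 3.45-fold lower. GADD45A 104571 stood at -0.66 (-1.03 to -0.32), GADD45A 43581 at -0.28 (-0.57 to -0.001) and mdm2 at -0.16 (-0.29 to -0.04). The log2 ratio of cdkn1a was 0.05 (-0.28 to 0.39). Over both injury states, none of the 10 IDs was called between the genotypes by edgeR or by DESeq2. The background was 3.26% of all genes by edgeR (538 genes, 2.50% higher and 0.763% lower) and 2.10% by DESeq2. At an unadjusted p below 0.05, which 16.7% of all genes had, edgeR gave the 2 GADD45B IDs, with changes of -1.01 ± 0.37 and -0.91 ± 0.34.

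Other genes shared the low level in the mutant uninjured library. GADD45G (ENSDARG00000019417), the other Gadd45 gene above the expression filter, had 1856, 555, 2547 and 2462 counts. Its genotype log2 ratio was -1.73 (-1.88 to -1.60) uninjured and -0.07 (-0.15 to 0.01) at 3 dpa. Among 24 tested p53 targets outside the set, 2 passed as lower in the mutant uninjured library and none as higher. Of all tested genes, 4.09% passed as lower and 3.92% as higher. The median of the targets was -0.19 beside -0.03 over all tested genes. The 2 that passed were DDIT4, an inhibitor of mTORC1, and BTG2, an antiproliferative gene. DDIT4 had 311, 28, 913 and 1032 counts, and BTG2 had 2748, 676, 5271 and 3250. Their log2 ratios in uninjured hearts were -3.39 (-4.08 to -2.91) for DDIT4 and -2.02 (-2.14 to -1.90) for BTG2. At 3 dpa BTG2 had a ratio of -0.72 (-0.78 to -0.65), short of the threshold, and DDIT4 stood at 0.16 (0.03 to 0.29). Over both injury states BTG2 was the 1 target of the 24 that was called between the genotypes, lower in the mutant by edgeR (-1.35, adjusted p = 0.0429). Of all genes, 0.763% were called lower in that fit.

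**Figure D3:**
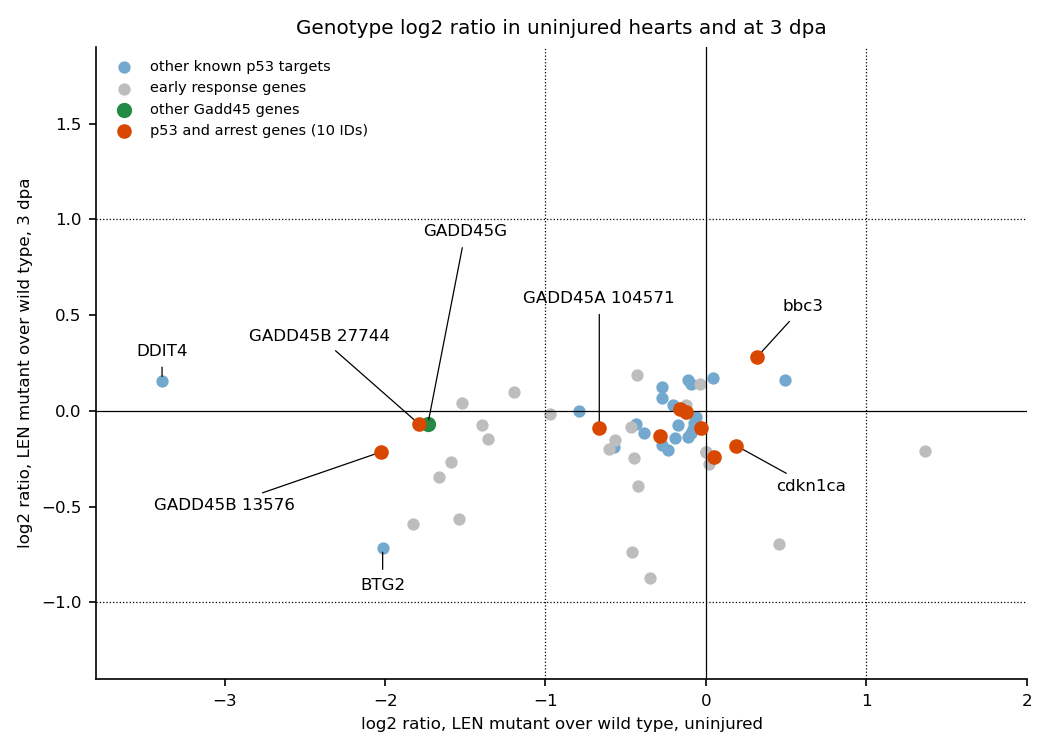
Log2 ratio of LEN mutant over wild type in uninjured hearts (horizontal) and at 3 dpa (vertical) for the 10 gene IDs, the other Gadd45 gene, the other p53 targets and the early response genes. Both GADD45B IDs, GADD45G and BTG2 lie between -2.03 and -1.73 on the horizontal axis, DDIT4 lies at -3.39, and no point passes 1 in size on the vertical axis.

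Early response genes are induced within minutes of a stimulus and need no new protein. They were added to the comparison after these values and their own values were seen. Their excess over all tested genes is therefore not an independent result. Of 23 tested IDs, 8 passed as lower and 1 as higher in the mutant uninjured library, beside 4.09% and 3.92% of all tested genes. Of the 23, 16 had their lowest level of the 4 libraries there. That share was not computed over all genes, so this count too is not read as particular to the list. The AP-1 gene FOS had 683, 191, 901 and 606 counts (uninjured log2 ratio -1.82, -2.07 to -1.60), and the zinc-finger gene egr1 had 1676, 555, 2841 and 2393 (-1.59, -1.73 to -1.45). The phosphatase gene DUSP1 stood at -1.66 (-1.78 to -1.56) and SOCS3 (ENSDARG00000025428) at -1.52 (-1.57 to -1.47). Another ID shares the SOCS3 symbol. Over both injury states the genotype log2 change by edgeR was -0.74 for the named SOCS3 ID and -0.12 for the other, neither called. ATF3 was the 1 ID of the 23 called in that fit, lower in the mutant (-0.60, edgeR adjusted p = 0.0356). Of all genes, 0.763% were called lower there. The 1 that passed as higher was KLF4, with 132 counts in uninjured wild type and 342 in uninjured mutant (1.37, 1.08 to 1.68). At 3 dpa none of the 23 passed between the genotypes, beside 3.00% of all tested genes. The uninjured libraries thus differed in liver transcripts, for which the wild-type library stood apart as high, and in Gadd45b, for which the mutant library stood apart as low. They also differed in early response genes, a list added after its values were seen. Of the 21 proliferation IDs given below, 2 passed as lower in the mutant uninjured library. The part of the early response, liver and proliferation transcripts in the Gadd45b values was not tested, and genotype and library cannot be told apart here.

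The third comparison set the members beside the rest of their pathway and beside dividing-cell genes. Of the 10 genes of the p53 core and DNA damage list, 9 were tested, and over both genotypes 6 rose and 3 fell with injury (edgeR adjusted p, background 25.4% and 20.3%). Of all tested genes, 49.5% were called with total counts (79.7% of those higher), 47.5% with upper-quartile factors (45.3% higher) and 30.5% with DESeq2 (52.3% higher), and the splits of the lists under these settings stand beside those shares. In single libraries CHEK1, chek2 and h2ax passed the threshold as higher in both genotypes. Single-library backgrounds for higher genes were 13.2% (wild type) and 14.7% (mutant) of all tested genes. How many of all genes passed in both was not computed, here or for the lists below. CHEK1, the kinase of the replication checkpoint, had 19, 8, 142 and 158 counts, with log2 ratios of 2.39 (1.79 to 3.26) for wild type and 3.61 (2.85 to 5.10) for the mutant. The kinase gene chek2 had log2 ratios of 1.45 and 1.66, and the histone gene h2ax, whose product is phosphorylated at DNA breaks, had 1.01 and 1.62. MDM4, the partner of Mdm2, fell by 0.28 on the log2 scale (SE 0.10, edgeR adjusted p = 0.0474), but stood at 0.01 with total counts and was not called by DESeq2 (adjusted p = 0.0878). With total counts the list had 6 genes called higher and 1 lower, and with DESeq2 4 and 1.

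Among the 24 tested p53 targets outside the set, 8 rose and 4 fell over both genotypes by edgeR, beside 25.4% and 20.3% of all genes. The split was 12 and 1 with total counts, 7 and 7 with upper-quartile factors, and 4 and 2 with DESeq2. Past the threshold in both genotypes were the kinase gene PLK3 (log2 ratios 1.26 for wild type and 1.27 for the mutant), the death receptor gene fas (1.42 and 1.41) and DDIT4 (1.13 and 4.68). The single-library backgrounds for higher genes, 13.2% (wild type) and 14.7% (mutant), apply to these 3 as well. The log2 ratio of DDB2, a sensor of ultraviolet damage, was -1.20 in wild type, past the threshold, and -0.92 in the mutant. The median injury log2 ratio of the list was 0.12 (wild type) and 0.29 (mutant).

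Of the 7 tested genes among the other CDK inhibitors and pocket proteins, 3 rose and none fell by edgeR, beside the same background, against 5 and 0 with total counts and 3 and 2 with upper-quartile factors. RB1, the retinoblastoma gene whose product blocks entry into S phase, passed in both genotypes, with 329, 307, 1096 and 937 counts and log2 ratios of 1.32 (1.14 to 1.5) in wild type and 1.17 (0.98 to 1.36) in the mutant. Its single-library backgrounds were again 13.2% (wild type) and 14.7% (mutant) of all tested genes. Among 13 tested genes of the Bcl2 family, 3 rose and 2 fell by edgeR, again beside 25.4% and 20.3% of all genes, against 3 and 0 with total counts and 1 and 5 with upper-quartile factors, and DESeq2 called 0 higher and 1 lower. The list had median injury log2 ratios of -0.15 (wild type) and -0.30 (mutant). The anti-apoptotic gene bcl2a had 47, 120, 96 and 116 counts and passed as higher in uninjured mutant hearts (log2 ratio 1.33, 0.86 to 1.88). Of all tested genes, 3.92% passed as higher there.

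Beside 13.2% (wild type) and 14.7% (mutant) of all tested genes that passed as higher with injury, the proliferation genes were far higher at 3 dpa. Of 21 tested IDs, 19 passed in wild type and 20 in the mutant, all as higher. Their median injury log2 ratio was 2.86 (wild type) and 3.60 (mutant), beside 0.25 and 0.45 for the 10 p53 and arrest IDs. CDK1, the kinase that drives mitosis and that Gadd45 proteins bind, had ratios of 3.70 (3.39 to 4.09) and 4.55 (4.15 to 5.10). CCNB1, TOP2A and plk1 were the other 3 with the largest rises in wild type. In the mutant uninjured library 20 of the 21 IDs had their lowest level of the 4 libraries. That share was not computed over all genes, so the count is not read as particular to the list. The median genotype log2 ratio of the list was -0.62 uninjured and 0.01 at 3 dpa, beside -0.03 and -0.002 over all tested genes. CCNE2 and CCNB1 passed as lower in the mutant uninjured library, as did 4.09% of all tested genes. At 3 dpa RRM2 (ENSDARG00000020711), 1 of 2 IDs with that symbol, passed as higher in the mutant with 99 counts against 7. Of all tested genes, 2.24% passed as higher there. The cell cycle inhibitor genes of the set, cdkn1a and cdkn1ca, had injury ratios between -1.26 and 0.39 in the same libraries.

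**Figure D4:**
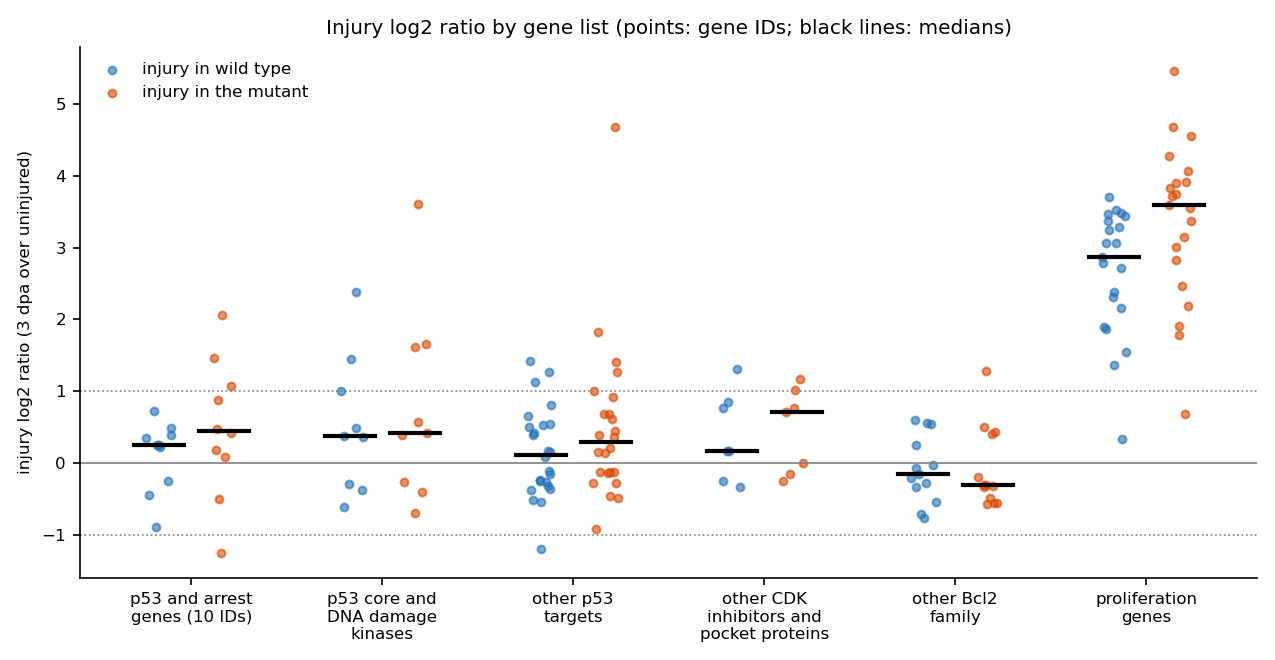
Injury log2 ratio (3 dpa over uninjured) of the tested gene IDs in each list, in wild type (blue) and in the LEN mutant (orange), with black lines at the medians and dotted lines at -1 and 1. The medians of the 10 p53 and arrest IDs lie at 0.25 and 0.45, and those of the proliferation genes at 2.86 and 3.60.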

How the data were processed

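RNA was measured in 4 libraries, 1 for each group of the crossed design (wild type or LEN mutant, uninjured or 3 dpa). The authors deposited whole-number read counts for each Ensembl gene ID, not normalized. Per the submitters' processing notes, HISAT2, featureCounts and GRCz11 were used. Which annotation release was used, whether strand was used in counting and how multi-mapping reads were handled is not given in the sources used here, so counts of paralogues such as the Gadd45 genes, and of overlapping genes, are uncertain. Per the file headers, all 4 libraries came from first reads of lane 8. Symbols came from a name table that covers 29201 of the 32520 IDs. No coordinates or sequences are given.

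Counts were scaled with TMM factors (edgeR 4.0.16, R 4.3.3), between 0.898 and 1.118. Log2 ratios used a prior count of 2, which draws low genes towards 0, and exact conditional binomial 95% intervals (Clopper-Pearson). The difference of injury responses had a delta-method interval, and single levels had Wilson intervals. Intervals cover counting error only. The floor of 3 counts corresponds to 0.0772 to 0.105 scaled CPM. A gene was tested if any library reached 1 scaled CPM, which left 16509.

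With 1 library per group no test within a group exists. The additive fit over all 4 libraries (injury state plus genotype, edgeR quasi-likelihood test, Benjamini-Hochberg over all tested genes, adjusted p below 0.05) leaves 1 residual degree of freedom, assumes equal injury responses in both genotypes and measures spread between these libraries. The spread of each gene was moderated with that of all genes, so the error is not the gene's own interaction alone. Standard errors were derived from the F statistic of the fit. On simulated counts with a coefficient of variation of 0.2 it recovered 200 of 200 genes changed 4-fold by injury, among 16079 genes, with 17 unchanged genes called. With 0.4 it recovered 25, among 16270. The common coefficient of variation in the data was 0.122. DESeq2 1.42.0 was the alternative. Intervals and summaries were computed in Python 3.11.15 with scipy 1.17.1, numpy 2.4.6 and pandas 2.3.3, and figures were drawn with matplotlib 3.10.9.

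The members and lists were chosen with earlier results of these data known. All members are named, and from the pathway lists those past the threshold in both injury comparisons or in a genotype comparison (at most 4 per direction, by size). MDM4 and DDB2, and the early response list with the genes named from it, were added after their values were seen. At least 80% of the symbols of every list were matched except for the erythroid markers (75.0%), which are not used in the text.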

Additional observations from a re-analysis of the deposited data

Results flagged for a closer look

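GADD45B 27744 moved in opposite directions with injury in the 2 genotypes. It was lower at 3 dpa in the wild-type pair of libraries (log2 ratio -0.25) and higher in the mutant pair (1.46), a difference of 1.72 whose counting interval was 1.57 to 1.86. The difference was not tested against spread between hearts, since each group had 1 library. With total counts the wild-type ratio was 0.01, so the opposite sign depends on the scaling, whereas the difference stayed between 1.70 and 1.77 under the 8 alternatives.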

How the results depend on the processing

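The scaling, the prior count, the filter and the threshold were varied for the single-library comparisons, and the tool, scaling, filter, covariate and library set for the additive fit. With a log2 threshold of 0.58, 2 IDs passed for injury in wild type instead of 0, and 6453 and 6460 of all genes passed for injury in wild type and mutant instead of 3303 and 3347. The counts of members for injury in the mutant, for genotype and for the difference of injury responses stayed within 1.5 times the reported counts under all 8 alternatives. The additive injury fit called 7 IDs, but 4 with upper-quartile factors, 3 with DESeq2 and 3 with no covariate. Leaving out each library in turn, with no covariate, left 1 library in an injury state, so values are given and not calls. GADD45B 13576 then ran from 0.15 to 2.20 and GADD45B 27744 from -0.29 to 1.50. Of all genes the main injury fit called 7559, DESeq2 5027 and the fit with no covariate 4848. The share of higher genes among those called was 55.6%, against 79.7% with total counts and 45.3% with upper-quartile factors. Between the genotypes no member was called in the main fit, with DESeq2, total counts or upper-quartile factors, or with no filter. Over all genes the main fit called 538, DESeq2 346, total counts 268, upper-quartile factors 548 and the fit with no filter 636. With no covariate 0 of all genes were called, so that fit could not have called a member. Leaving out a library left 1 library of a genotype, so those fits are not used here. The low GADD45B levels of the mutant uninjured library kept their call under all 8 alternatives, between -2.04 and -1.94 for GADD45B 13576 and between -1.81 and -1.78 for GADD45B 27744. In the mutant, GADD45A 104571 lost its injury call with upper-quartile factors (0.94), cdkn1ca lost it with total counts (-0.96), and GADD45A 43581 gained one with total counts (1.19). The cause of these shifts was not tested. No paired analysis was possible because each group has 1 library and the labels give no replicate numbers. Depth limits cdkn1ca most, with 31 to 57 counts per library.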
